A study of Mus musculus with 20 samples.

Results

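The respiratory chain of mitochondria is built from subunits encoded in the nucleus and 13 encoded in mitochondrial DNA, and the nuclear share is described here across ageing and Sod2-deficient mouse skin. Its genes were taken by symbol: the Ndufa, Ndufb, Ndufc, Ndufs and Ndufv genes (complex I), Sdha to Sdhd (complex II), the Uqcr genes and Cyc1 (complex III), the Cox4 to Cox8 genes (complex IV) and the Atp5 genes (complex V), without pseudogene names. This gave 84 genes among 21450 named genes: 37 of complex I, 4 of complex II, 9 of complex III, 17 of complex IV and 17 of complex V. Of these, 82 averaged 1 FPKM or more across the groups and entered the counts, beside 13321 genes in all that passed the same filter. The remaining pair, Cox7b2 and Cox8c, are isoforms of complex IV at or below 0.125 FPKM in every group and listed at 0 in most. Cox4i1, the main isoform of subunit 4, was not analysed here, nor were subunits whose symbols fall outside these patterns, such as Ndufab1. The symbols also bring in a few genes that are no structural subunit: Cox7a2l, a factor of respiratory supercomplexes, and Atp5s and Atp5sl, named after the ATP synthase. Ndufa4 carries a complex I name, although its protein is now placed in complex IV.

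Total skin of C57BL/6 mice, an inbred strain, was sequenced in 20 samples of 6 groups. Controls carried Sod2+/+ and were sampled at an age of 50 days (5 samples), of 100 days (2 samples), of 300 days (3 samples) and of 700 days (4 samples). Conditional knockouts (cKO) carried Sod2-/- and were sampled at an age of 100 days (3 samples) and of 300 days (3 samples). Sod2 encodes the superoxide dismutase of the mitochondrial matrix, which removes superoxide that leaks from the respiratory chain. The labels do not say which promoter drove the deletion or in which cells of the skin it took place. The authors' table gives 1 FPKM (fragments per kilobase of transcript, scaled to sequencing depth) for each gene in each group. There is thus no spread between replicates, no error and no test behind any value below, and differences are given as log2 ratios of (FPKM + 1). Sizes of at least 0.5 and of at least 1 were counted. The 50- and 700-day groups share a sample title prefix and the 100- and 300-day groups share another, and ratios were taken only within a prefix.

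Electrons from NADH enter the chain at complex I and those from succinate at complex II, which is also an enzyme of the tricarboxylic acid (TCA) cycle. Complex III passes them through cytochrome c to complex IV, cytochrome c oxidase, which reduces oxygen. Complexes I, III and IV pump protons, and complex V, the ATP synthase, uses the gradient to make ATP. Several subunits of complex IV exist as a widely expressed form and a form of striated muscle: Cox6a2, Cox7a1 and Cox8b are the muscle forms, and some of them are also found in brown fat. In skin, keratinocytes, fibroblasts, fat cells and the muscle layer under the dermis all carry mitochondria in different amounts.

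Facts of the whole data set touch every comparison. Sod2 was 27.7 FPKM in control and 17.6 FPKM in cKO skin at 100 days, 23.5 and 16.8 FPKM at 300 days, and 12.7 FPKM in young (50-day) and 11.5 FPKM in old (700-day) controls. FPKM summed to between 496936 and 692242 per group, and the number of reads is unknown. The female transcript Xist was at 1141 FPKM or more in the 50-, 100- and 300-day controls and at 17.2 FPKM or less in the 700-day controls and both cKO groups, where Y-linked genes such as Ddx3y (21.4 FPKM or more) were present. The effects of old age and of the cKO genotype cannot be told apart from this sex-linked difference. Markers of the expected cells were present in every group and differed between groups. The 6 keratinocyte genes summed to between 2125 and 9720 FPKM. Their median log2 ratios were 0.33 with age (5 of 6 above 0), 0.18 in cKO skin at 100 days (3 of 6 above 0) and 0.56 at 300 days (6 of 6 above 0). The 6 fibroblast genes summed to between 800 and 4057 FPKM, with medians of -0.82 with age (6 of 6 below 0), -0.40 at 100 days and 0.61 at 300 days. The 4 endothelial genes summed to between 19.5 and 63.0 FPKM, with medians of -0.61, -0.57 and -0.70 in the same order, all 4 below 0 each time. Fast skeletal muscle genes (14 measured) summed to 4311 FPKM at 50 days and 106 FPKM at 700 days, to 21784 and 14265 FPKM in control and cKO skin at 100 days, and to 18786 and 21157 FPKM at 300 days. Fat cell genes (12 measured) summed to 1082 and 298 FPKM at 50 and 700 days, 7726 and 2424 FPKM in control and cKO skin at 100 days, and 5696 and 2725 FPKM at 300 days. In bulk tissue, fewer cells of a type and less RNA per cell cannot be told apart. The part of these cell type differences in the results below was not tested.

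At 100 days, nuclear subunits of all 5 complexes stood at lower levels in cKO skin than in controls. The median log2 ratio over the 82 genes was -0.42, against 0.02 over all genes, and 76 of 82 (92.7%) lay below 0, against 48.3% of all genes. The 29 genes lower by at least 0.5 made up 35.4% of the set, where the background over all genes was 15.1%. By complex these were 13 of complex I, 3 of complex II, 4 of complex III, 7 of complex IV and 2 of complex V (Atp5j and Atp5s). None was higher by 0.5, where the background was 11.8%. Cox7c, a small subunit of complex IV, was lower by at least 1 (background 4.30%), and none was higher by that size (background 2.25%). Without the 3 muscle isoforms the median was -0.40.

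At 300 days the set was lower as a whole, but by less. The median log2 ratio was -0.21, against -0.01 over all genes, and 67 of 82 (81.7%) lay below 0, against 51.2% of all genes. Only 10 genes (12.2%) were lower by at least 0.5, which is no larger a share than the background of 14.8%. The 3 genes higher by at least 0.5 were Cox6b2, Ndufa4l2 and Cox4i2 (background 10.3%). Cox7c was again lower by at least 1 (background 5.17%), and none was higher by that size (background 1.97%). The 300-day difference between set and background thus lay in a small shift shared by most genes, not in the number of large differences.

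In 700-day against 50-day control skin the median was -0.19, against -0.03 over all genes, and 69 of 82 (84.1%) lay below 0, against 55.1% of all genes. The 13 genes lower by at least 0.5 were 15.9% of the set (background 10.9%), and Cox4i2 was higher by that size (background 3.05%). The genes lower by at least 1 were the 3 muscle isoforms (background 3.18%), and none was higher by 1 (background 0.631%). Of the 82 genes, 58 (70.7%) lay below 0 in this comparison and in both cKO comparisons, against 21.2% of all genes. These include every gene of complex III. Besides the muscle isoforms and Sdhb, the genes lower by at least 0.5 with age were Ndufa8 (33.7 FPKM at 50 days, 18.8 FPKM at 700 days, log2 ratio -0.81), Atp5g1, Cox6c, Ndufc2, Atp5j2, Ndufv3, Ndufb3, Ndufs8 and Uqcr11. They are spread over complexes I, III, IV and V. Cox6c was 237 and 148 FPKM (-0.68), Ndufc2 35.5 and 22.3 FPKM (-0.65) and Atp5j2 115 and 73.3 FPKM (-0.64).

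**Figure D1:**
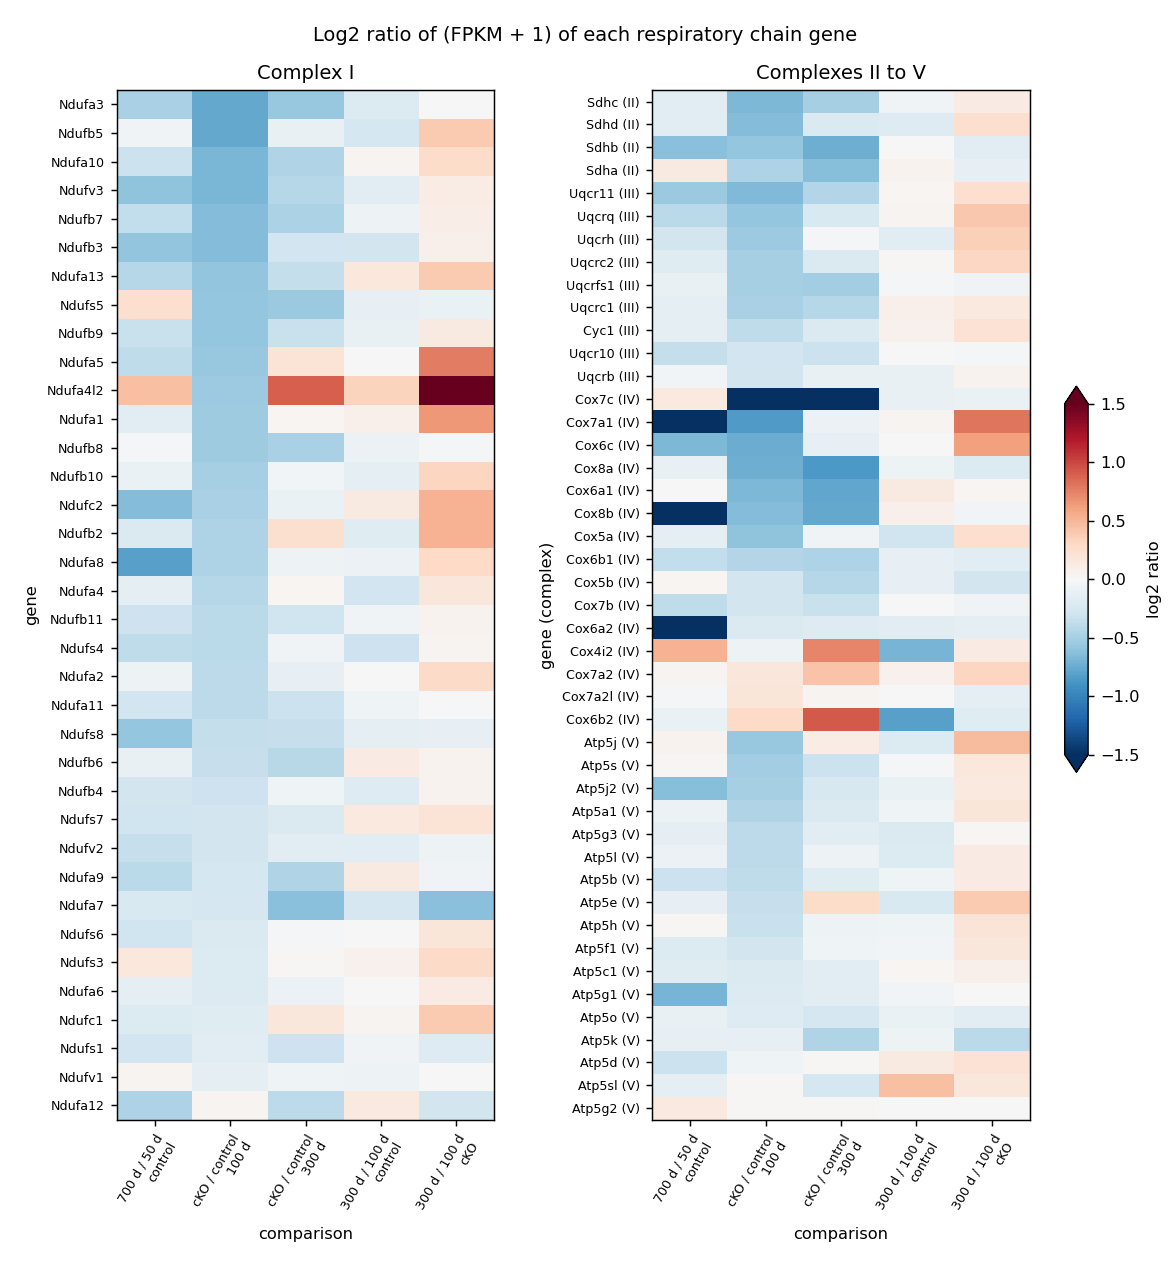
Heat map of the log2 ratio of (FPKM + 1) of 81 of the 82 genes (rows, grouped by complex and ordered by the 100-day cKO ratio) in 5 comparisons (columns). Colours stop at a size of 1.5; the 100-day cKO column is below 0 for all but 6 of the genes shown, and the 3 muscle isoforms stand out in the 700-day column.

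**Figure D2:**
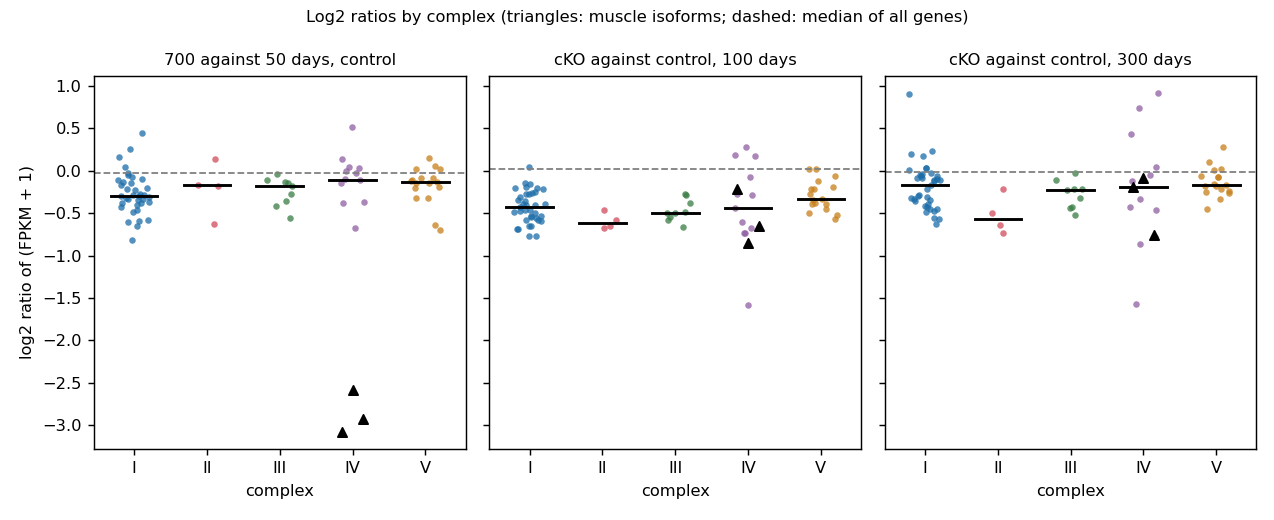
Log2 ratios of (FPKM + 1) by complex in 3 comparisons. Each point is a gene, black bars are medians, triangles are the muscle isoforms and the dashed line is the median of all genes; every complex has its median below that line in each comparison.

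Complex I oxidises NADH, and its 37 genes comprise 7 core subunits that hold the flavin and iron-sulfur clusters and 30 accessory ones. At 100 days its median in cKO against control skin was -0.43 and 36 of 37 genes lay below 0. The 7 core genes had a median of -0.27, with none lower by 0.5, where the background over all genes was 15.1%. For as few as 7 genes, none is close to that background. The 30 accessory genes had a median of -0.48, with 13 (43.3%) lower by at least 0.5. The core gene Ndufv1, which binds NADH, was 86.5 FPKM in control and 78.4 FPKM in cKO skin at 100 days, and 81.8 and 78.1 FPKM at 300 days. It stood at 44.9 and 46.3 FPKM in 50- and 700-day controls, so all 3 ratios were within 0.14 of 0. Ndufs1, the largest core subunit, was 79.4 and 70.9 FPKM in control and cKO skin at 100 days, 76.8 and 61.9 FPKM at 300 days, with an ageing ratio of -0.29. At 100 days the ratios of Ndufv1 (-0.14) and Ndufs1 (-0.16) were among the nearest to 0 of the complex. Not all core genes were so near, with Ndufs8 at -0.36. At 300 days Ndufs1 (-0.31) lay below the complex median of -0.17.

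Among the accessory genes Ndufa3 had the lowest ratio at 100 days. It stood at 324 FPKM in control and 190 FPKM in cKO skin (log2 ratio -0.77), at 281 and 189 FPKM at 300 days (-0.57), and at 140 and 99.6 FPKM at 50 and 700 days (-0.49). Its annotated span overlaps that of Tfpt. Ndufa12 was the only gene of the complex above 0 at 100 days (41.8 FPKM in control, 43.0 FPKM in cKO), a difference of 0.04 (-0.09 with each group rescaled to the same total), and at 300 days it was 46.5 and 35.4 FPKM (-0.39). Ndufa7 was 95.5 and 80.3 FPKM at 100 days (-0.25) and 80.3 and 51.5 FPKM at 300 days (-0.63), the lowest 300-day ratio of the complex. Ndufa5 showed the opposite order, with 224 and 151 FPKM at 100 days (-0.56) and 224 and 257 FPKM at 300 days (0.20). Ndufs5 stood below control at both ages of cKO skin, at 97.9 and 65.2 FPKM and then 90.1 and 60.8 FPKM (-0.58 and -0.56), yet 40.2 FPKM at 50 and 48.2 FPKM at 700 days (0.26). Several genes of the membrane arm were also well below control at 100 days and close to it at 300 days. Ndufb5 was 117 and 68.2 FPKM (-0.77) and then 96.7 and 89.5 FPKM (-0.11), and Ndufb10 had ratios of -0.50 and -0.04. Ndufa10 and Ndufb7 were below control at both ages, with ratios of -0.69 and -0.65 at 100 days and of -0.45 and -0.48 at 300 days. Ndufa10 was 227 and 141 FPKM at the earlier age. With age the complex I median was -0.30, the lowest of the 5 complexes, and 33 of 37 genes lay below 0. Mean levels ran from 7.51 FPKM (Ndufa11) to 214 FPKM (Ndufa4).

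Complex II, succinate dehydrogenase, has 4 subunits and no mitochondrially encoded one. It had the lowest median of the 5 complexes in cKO skin at both ages, -0.61 at 100 days and -0.57 at 300 days, with all 4 genes below 0 each time. Sdha, the flavin-binding catalytic subunit, was 169 and 122 FPKM in control and cKO skin at 100 days (log2 ratio -0.46) and 175 and 113 FPKM at 300 days (-0.63). Sdhb, the iron-sulfur subunit, was 108 and 72.0 FPKM at 100 days (-0.58) and 107 and 63.9 FPKM at 300 days (-0.74). The catalytic pair was thus further below control at the later age. The membrane anchors Sdhc and Sdhd had ratios of -0.68 and -0.65 at 100 days and of -0.50 and -0.21 at 300 days. Sdhd had the lowest mean level (30.1 FPKM) and Sdha the highest (120 FPKM). In ageing control skin the catalytic pair differed: Sdha was 66.6 FPKM at 50 days and 73.1 FPKM at 700 days (0.13), and Sdhb was 34.2 and 21.9 FPKM (-0.62).

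Complex III showed the most even pattern, with all 9 genes below 0 in the ageing comparison and in both cKO comparisons, although rescaling put Uqcrb above 0 with age and Uqcrh above 0 at 300 days. Its medians were -0.18 with age, -0.50 in cKO skin at 100 days and -0.23 at 300 days. Uqcrfs1, the Rieske iron-sulfur protein, was 49.7 and 34.8 FPKM in control and cKO skin at 100 days (log2 ratio -0.50) and 48.6 and 33.5 FPKM at 300 days (-0.52). Cyc1, cytochrome c1, was 54.5 and 41.7 FPKM at 100 days (-0.38) and 56.8 and 48.7 FPKM at 300 days (-0.22). These catalytic genes were 21.3 and 19.6 FPKM (Uqcrfs1) and 23.5 and 21.3 FPKM (Cyc1) at 50 and 700 days. The hinge protein gene Uqcrh, the highest of the complex with a mean of 239 FPKM, was 318 and 217 FPKM at 100 days (-0.55) but 285 and 279 FPKM at 300 days (-0.03). Uqcrfs1 kept the same size of difference at both ages while that of Uqcrh was near 0 at 300 days. The range over the 9 genes was -0.66 to -0.28 at 100 days and -0.52 to -0.03 at 300 days.

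Complex IV was the most varied. The 9 widely expressed subunits measured had a median of -0.61 in cKO skin at 100 days and of -0.43 at 300 days, with 8 of 9 below 0 each time. The 5 of these lower by at least 0.5 at 100 days (55.6%, background 15.1%) were Cox5a, Cox6a1, Cox6c, Cox7c and Cox8a. Of them Cox6a1, Cox7c and Cox8a were so at 300 days as well (33.3% of the 9, background 14.8%). Cox5a, a subunit on the matrix side of the enzyme, was 72.7 and 47.3 FPKM in control and cKO skin at 100 days (log2 ratio -0.61) and 58.7 and 56.7 FPKM at 300 days (-0.05). Cox6a1 was 145 and 90.6 FPKM at 100 days (-0.67) and 160 and 92.4 FPKM at 300 days (-0.78). Cox8a was 113 and 67.4 FPKM at 100 days (-0.73) and 107 and 58.3 FPKM at 300 days (-0.86). Cox6a1 and Cox8a hardly differed with age, at 81.5 and 81.2 FPKM and at 57.1 and 53.0 FPKM in 50- and 700-day controls. Cox6b1, the highest of the complex with a mean of 489 FPKM, lay below control by similar sizes at both ages (-0.44 and -0.46).

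Cox7c stood apart from the other genes. It was 174 FPKM in control and 57.3 FPKM in cKO skin at 100 days (log2 ratio -1.59), and 161 FPKM in control and 53.6 FPKM in cKO skin at 300 days (-1.57). The next lowest gene was Cox7a1 at 100 days (-0.85) and Cox8a at 300 days (-0.86). With age Cox7c stood at 41.5 FPKM (50 days) and 45.9 FPKM (700 days), a ratio of 0.14, so the gene that differed most by genotype was not lower with age. It was the only gene of the set lower by at least 1 at both ages, which 167 of all genes (1.25%) were. Cox7c lies on chromosome 13 from 86044816 to 86046904 (GRCm38, minus strand). Its annotated protein-coding transcripts have a median length of 540 bases. They have 4 annotated pseudogene copies of at least 95% identity over at least 75 bases, the read length. The span of Cox7c overlaps the small RNA gene Gm22574. The sources used here do not say how the authors' counting divided reads between such copies, so the value of Cox7c is uncertain to that extent.

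**Figure D3:**
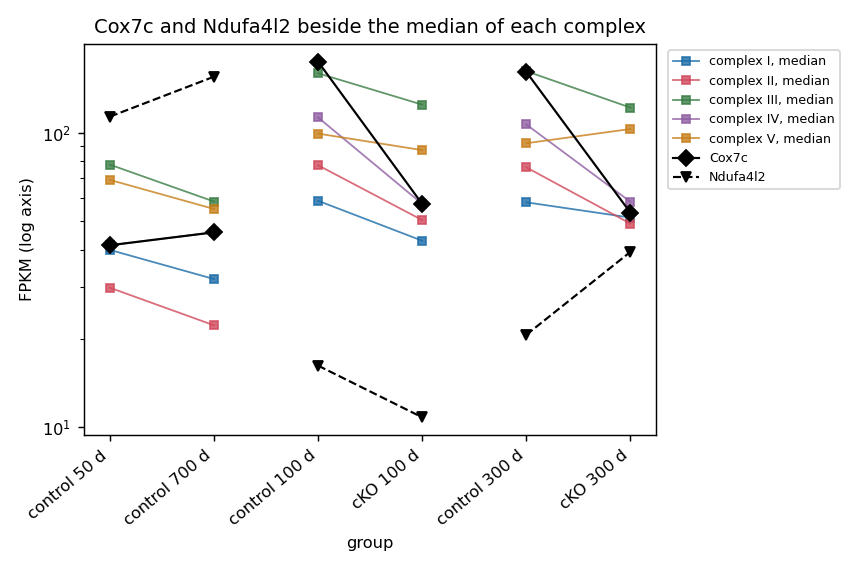
FPKM (log axis) of Cox7c (diamonds) and Ndufa4l2 (triangles) in the 6 groups, beside the median over the genes of each complex (squares); lines join groups that were compared. Cox7c is 174 and 161 FPKM in controls of 100 and 300 days and at most 57.3 FPKM in cKO skin.

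The muscle isoforms carried the largest differences with age. Cox6a2 was 10.3 FPKM in 50-day and 0.340 FPKM in 700-day control skin (log2 ratio -3.08). Cox7a1 was 10.6 and 0.932 FPKM (-2.59), and Cox8b was 19.6 and 1.70 FPKM (-2.93). Their widely expressed partners were nearly level: Cox6a1 as above, Cox7a2 at 27.1 and 27.9 FPKM, and Cox8a as above. The muscle form therefore made up 11.2% of Cox6a2 plus Cox6a1 at 50 days and 0.416% at 700 days. For Cox7a1 in its pair the percentages were 28.1% and 3.23%, and for Cox8b 25.5% and 3.11%. All 14 fast muscle genes were lower by at least 1 in the same comparison, with a median of -5.20. Without the 3 isoforms the median of complex IV was -0.06 with age, and 0.04 after rescaling each group to the same total, so no direction remained for the rest of the complex.

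In the 100- and 300-day groups the muscle isoforms were abundant. Cox6a2 was 45.7 and 39.1 FPKM in control and cKO skin at 100 days and 40.9 and 35.6 FPKM at 300 days, ratios of -0.22 and -0.20. Cox7a1 was 78.2 and 43.0 FPKM at 100 days (-0.85) and 80.3 and 75.8 FPKM at 300 days (-0.08). Cox8b was 114 and 72.4 FPKM at 100 days (-0.65) and 120 and 70.4 FPKM at 300 days (-0.76). The isoforms thus did not move together between genotypes: at 300 days Cox8b was lower and the others were near the control level. The fast muscle genes had a median of -0.69 at 100 days and 0.20 at 300 days, and the fat cell genes of -1.81 and -1.25. The 6 slow skeletal or heart muscle genes that passed the filter had medians of 0.61 at 100 days (4 of 6 above 0) and 0.27 at 300 days (3 of 6 above 0). They summed to 255 and 252 FPKM in control and cKO skin at 100 days, and to 196 and 466 FPKM at 300 days. The highest value of the list made up most of each sum, at 237 and 212 FPKM and then 185 and 457 FPKM. The median level of the list was at most 3.71 FPKM in these groups, so its median ratios rest on low values. Ucp1, the uncoupling protein that defines brown fat, was 22.6 and 2.49 FPKM at 100 days and 29.2 and 11.0 FPKM at 300 days, and no more than 0.141 FPKM in young and old controls. The brown fat list had 6 genes that passed the filter, Ucp1 included. Their medians were -0.44 at 100 days (5 of 6 below 0) and 0.31 at 300 days (4 of 6 above 0). Elovl3, a fatty acid elongase of the list, was above control at both ages (0.79 and 0.88). The list summed to 46.3 and 40.9 FPKM in young and old controls, where Ucp1 was nearly absent. It therefore does not stand for brown fat cells alone. As a percentage of its pair Cox7a1 went from 74.2% in control to 58.2% in cKO skin at 100 days and from 73.8% to 66.1% at 300 days. Cox6a2 made up 24.0% and 30.2% at 100 days and 20.4% and 27.8% at 300 days, and Cox8b 50.3% and 51.8%, then 53.0% and 54.7%. Cox6a1 was lower in cKO skin by more than Cox6a2 at both ages (-0.67 and -0.78). Cox8a was lower by nearly the same size as Cox8b, at -0.73 and -0.86.

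**Figure D4:**
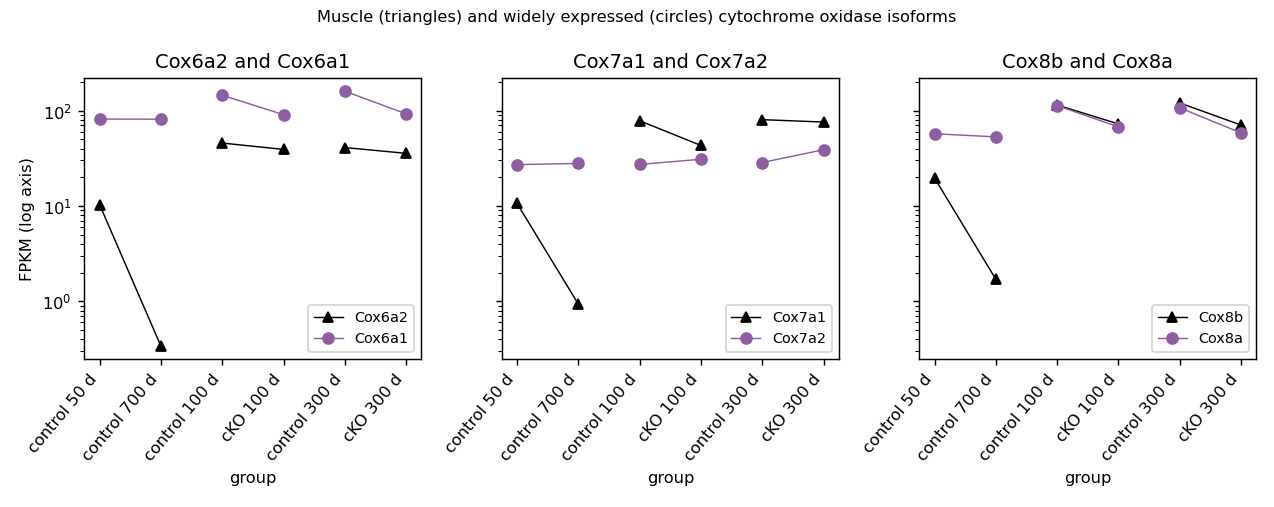
FPKM (log axis) of the muscle isoforms (triangles) and their widely expressed partners (circles) in the 6 groups; lines join groups that were compared. The triangles drop from between 10.3 and 19.6 FPKM at 50 days to 1.70 FPKM or less at 700 days while the circles stay level.

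Cox7a2 was the exception among the widely expressed subunits. It was 27.2 and 30.9 FPKM in control and cKO skin at 100 days (log2 ratio 0.17) and 28.5 and 38.9 FPKM at 300 days (0.43). Its partner Cox7a1 was lower at 100 days (-0.85) and near the control level at 300 days (-0.08). Cox7a2l was 39.8 and 45.2 FPKM at 100 days (0.18) and 39.7 and 40.9 FPKM at 300 days (0.04), and 62.3 and 61.4 FPKM with age. Cox7a2, Cox7a2l, Cox6b2 and Atp5g2 were the 4 genes above 0 at both ages, of which Atp5g2 was below 0 with equal totals.

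The isoforms tied to special settings were mostly low. Cox4i2, a lung and low-oxygen isoform of subunit 4 and the lowest gene that entered the counts, was 1.65 and 1.51 FPKM in control and cKO skin at 100 days and 0.636 and 1.73 FPKM at 300 days (log2 ratio 0.74), with 0.465 and 1.10 FPKM at 50 and 700 days (0.52). Cox6b2, a testis isoform, was 3.24 and 4.15 FPKM at 100 days (0.28) and 1.41 and 3.56 FPKM at 300 days (0.92), with 1.83 and 1.65 FPKM with age. For both, the 300-day control value was low, and a ratio of such low values moves with the constant added: with 0.1 in place of 1 the 300-day ratios were 1.31 for Cox4i2 and 1.28 for Cox6b2. Ndufa4l2, a relative of Ndufa4 induced by hypoxia-inducible factor 1, was not low. It was 16.2 and 10.8 FPKM in control and cKO skin at 100 days (-0.54) and 20.6 and 39.4 FPKM at 300 days (0.90). In the other prefix it was 113 FPKM at 50 days and 155 FPKM at 700 days (0.45). Ndufa4 itself was 298 and 221 FPKM at 100 days (-0.43) and 245 and 249 FPKM at 300 days (0.03). Ndufa4l2 was thus below control at one age and above it at the other. Its span, chromosome 10 from 127514967 to 127517154 (GRCm38, plus strand), overlaps that of Shmt2, which was 6.66 and 8.64 FPKM at 100 days and 8.44 and 9.92 FPKM at 300 days.

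Complex V, the ATP synthase, differed least between genotypes at 100 days. Its median was -0.33 in cKO skin at 100 days, -0.17 at 300 days and -0.13 with age. Atp5b, the catalytic beta subunit and the highest gene of the set with a mean of 652 FPKM, was 868 and 669 FPKM in control and cKO skin at 100 days (log2 ratio -0.38), 828 and 731 FPKM at 300 days (-0.18), and 454 and 363 FPKM in young and old controls (-0.32). Atp5a1, the alpha subunit, was 275 and 200 FPKM at 100 days (-0.46), 263 and 226 FPKM at 300 days (-0.22), and 119 and 112 FPKM with age (-0.09, but 0.02 with equal totals). The 3 genes for the identical c subunit of the rotor ring differed among themselves. Atp5g1 was 13.8 and 8.07 FPKM at 50 and 700 days (-0.70), Atp5g3 29.7 and 26.6 FPKM (-0.15) and Atp5g2 25.3 and 28.2 FPKM (0.15). In cKO skin Atp5g2 was level with control at both ages (37.0 and 37.5 FPKM, then 36.9 and 37.3 FPKM). Atp5g2 has 2 pseudogene copies and shares its row of the table with Mir688. By part of the enzyme, the medians at 100 days were -0.34 for the 5 genes of the F1 head and central stalk, -0.30 for the 4 genes of the peripheral stalk, -0.40 for 3 small membrane subunits and -0.21 for the c ring. The parts were thus close to each other. The median of the c ring lay nearest to 0, although its gene Atp5g3 was at -0.40. Atp5j, of the peripheral stalk, was 188 and 126 FPKM at 100 days (-0.57) but 163 and 176 FPKM at 300 days (0.11). Atp5k, a small membrane subunit, was 95.3 and 87.3 FPKM at 100 days (-0.13) and 90.0 and 65.8 FPKM at 300 days (-0.45), the lowest 300-day ratio of the complex. Atp5s had the lowest mean, 3.28 FPKM, and Atp5sl a ratio of 0.02 at 100 days and -0.26 at 300 days.

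The genotype ratios at both ages were then set against each other. They come from separate control and cKO groups. In 65 of 82 genes (79.3%) the ratio lay below 0 at both ages, against 31.5% of all genes. Below 0 at 100 days and above 0 at 300 days were 11 genes: Atp5d, Atp5e, Atp5j, Cox4i2, Ndufa1, Ndufa4, Ndufa4l2, Ndufa5, Ndufb2, Ndufc1 and Ndufs3 (the last not with equal totals). Only Ndufa12 and Atp5sl had the reverse signs, and with equal totals both were below 0 at 100 days as well. Lower by at least 0.5 at both ages were 7 genes (8.54%, against 6.10% of all genes): Cox6a1, Cox7c, Cox8a, Cox8b, Ndufa3, Ndufs5 and Sdhb. The ratio was less far below, or further above, at 300 than at 100 days in 62 of 82 genes (75.6%, against 47.7% of all genes), with a median difference of 0.19 against -0.02 over all genes. By complex, the medians of this difference were highest in complexes I, III and V, at 0.24, 0.17 and 0.20, whereas complexes II and IV had medians of 0.01 and 0.02. It was largest in Ndufa4l2 (1.44), Cox4i2 (0.82) and Cox7a1 (0.76), and lowest in Ndufa12 (-0.43), Ndufa7 (-0.38) and Atp5k (-0.32). Across the 82 genes, which share their libraries, the ratios at 100 and 300 days correlated with Pearson's r = 0.54 and Spearman's rho = 0.38, and r was 0.42 without Cox7c. Over all 13321 genes r was 0.36 and rho 0.38, so the rank correlation of the set was that of the background.

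**Figure D5:**
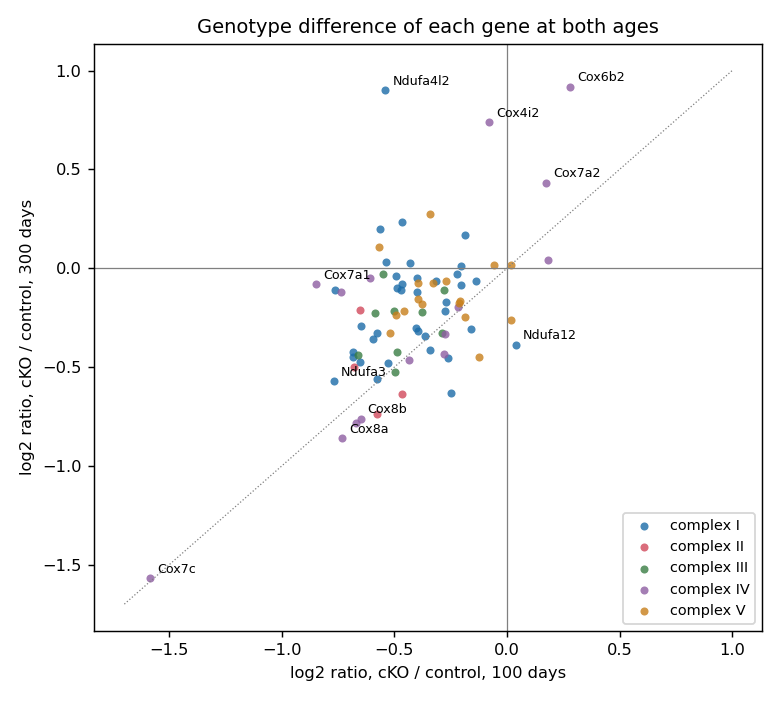
Log2 ratio of (FPKM + 1) in cKO against control skin at 100 days (horizontal axis) and 300 days (vertical axis), 1 point per gene, coloured by complex. The dotted diagonal marks equal ratios; 62 of 82 genes lie above it, and Cox7c lies at -1.59 and -1.57.

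From 100 to 300 days, control skin differed little in the values as deposited. The median was -0.05 (0.03 over all genes), 2 genes were lower by at least 0.5 (Cox6b2 and Cox4i2, background 5.23%) and none higher (background 10.0%). None passed a size of 1 in either direction (backgrounds 1.05% lower and 3.57% higher). The lowest gene after those isoforms was Ndufs4 (26.2 and 20.9 FPKM, -0.31), and the highest were Atp5sl (0.45), Ndufa4l2 (0.33) and Ndufa13 (0.15, but -0.04 with equal totals). With equal totals the median in control skin was -0.25 (-0.15 over all genes), and 80 of 82 genes lay below 0 (69.4% of all genes). In cKO skin the median as deposited was 0.12 (0.02 over all genes) and 56 of 82 genes lay above 0. Higher by at least 0.5 were 7 genes (8.54%, background 11.7%), led by Ndufa4l2 (10.8 to 39.4 FPKM, 1.77), Cox7a1 (43.0 to 75.8 FPKM, 0.80) and Ndufa5 (151 to 257 FPKM, 0.76). Ndufa4l2 was the gene higher by at least 1 (background 2.50%). Ndufa7 was the gene lower by at least 0.5 (80.3 to 51.5 FPKM, -0.63, background 7.95%), and none was lower by 1 (background 1.55%). Both age comparisons share their groups with the genotype comparisons.

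Other genes of the same pathway were read from fixed lists. The 13 subunits encoded in mitochondrial DNA, which several rows of the table report jointly, were all below 0 in cKO skin at 100 days (median -0.51), like the nuclear set. At 300 days 12 of 13 were above 0 (median 0.15), while the nuclear set stood at -0.21. For example mt-Nd2, a proton-pumping subunit of complex I, was 1784 and 1278 FPKM in control and cKO skin at 100 days and 1929 and 2135 FPKM at 300 days. The rows of mt-Nd3, mt-Co2 and the joint mt-Atp6, mt-Atp8 and mt-Co3 row were below 10 FPKM in every group. A joint row counted once for each of its symbols, so the 13 ratios are not 13 separate measurements. The 14 TCA cycle genes had medians of -0.49 at 100 days and -0.35 at 300 days, with 13 of 14 below 0 at each age, and of -0.21 with age (12 of 14). Assembly factors, which help put the complexes together (44 genes), had medians of -0.23 and -0.14 at 100 and 300 days, with 33 and 30 genes below 0. For the 77 genes of the mitochondrial ribosome the medians were -0.10 and -0.13. The 12 regulators of mitochondrial biogenesis had medians of 0.17 and 0.04, with 5 and 6 genes below 0. Among them Ppargc1b, a coactivator of these genes, was lower by at least 1 at 100 days (5.24 and 1.79 FPKM, -1.16), and its relative Ppargc1a was 7.27 and 6.79 FPKM. TCA cycle genes therefore shared the sign of the nuclear subunits in all 3 comparisons, and the regulators did not.

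The length of a gene was taken as the median over all its annotated protein-coding transcripts, with no choice of the full-length one. It can thus fall short of the main transcript, as with 651 bases for Ndufs1, the largest core subunit. By this measure nuclear subunits are short, with a median of 659 bases against 2164 over all genes. The 478 other genes under 600 bases had medians of 0.01 in cKO skin at 100 days, -0.04 at 300 days and -0.07 with age, and 19.0%, 18.4% and 19.7% of them were lower by at least 0.5, against 15.1%, 14.8% and 10.9% of all genes. The 30 nuclear subunits under 600 bases had medians of -0.49, -0.28 and -0.16, with 43.3%, 23.3% and 16.7% lower by that size. The part of transcript length in the differences was not tested. The 80 genes of the cytosolic ribosome, another set of short and abundant transcripts, had a median of 0.34 at 100 days and -0.06 at 300 days. Across the set, transcript length and the ratio correlated at 100 days with r = 0.12 and rho = 0.16 (81 genes that share their libraries). In the genome 83 of the 84 genes were found in the annotation, on 19 chromosomes, with 8 on chromosome 7. Ndufs8 and Ndufv1 lay within 100000 bases of each other. Pseudogene copies like those of Cox7c were found for 23 of the 84 genes, with 9 for Atp5l, and 4 genes share a table row with other symbols.

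Promoters were read from RefSeq (GRCm38.p6), 250 bases before to 50 after each annotated start, for 66 of the 84 genes. The NRF1 motif GCGCANGCG, searched on both strands like the others, was in 28.8% of the windows, against 6.47% of all 27025 promoters and 13.1% of 9973 protein-coding genes that passed the filter. NRF1 and the GABP factor are known activators of respiratory genes. The ETS motif CCGGAAG, which GABP binds, was in 22.7% (9.12% and 17.0%), the YY1 motif AAGATGGC in 12.1% (2.88% and 4.46%) and the ERR motif CAAGGTCA in 6.06% (1.53% and 0.993%). The box CCAAT was in 43.9% (37.9% and 38.2%), TATAAA in 10.6% (14.2% and 8.04%) and the E-box CAGCTG, which muscle factors bind, in 9.09% (16.1% and 15.2%), and the MEF2 motif in none (0.566% and 0.551%). Genes with and without the NRF1 motif had similar medians in cKO skin at 100 days, -0.40 over 19 genes and -0.42 over 46. In the same order they were -0.16 and -0.23 at 300 days and -0.14 and -0.30 with age. For the ETS motif the medians were -0.44 over 15 genes with it and -0.40 over 50 without it at 100 days. They were -0.41 and -0.17 at 300 days and -0.13 and -0.25 with age. These differences were not tested. All motifs here are matches of letters, not sites shown to be bound.

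The stretches before the start are shown for the isoform pairs that differed with age or genotype, except Cox6a2, for Cox7c, the lowest in cKO skin, and for Sdhd, which carries several motifs. Each is the strand of the gene, 5′ to 3′, in lower case with motif matches in capitals (on the minus strand a match reads as its complement, such as ATTGG for CCAAT). Positions count back from -1, the last base before the start, taking the earlier start where RefSeq and GENCODE differ. They lie at chr7:30183994-30184143 (plus strand) for Cox7a1, chr9:79759879-79760028 (minus) for Cox7a2, chr7:140900447-140900596 (minus) for Cox8b, chr19:7217617-7217766 (minus) for Cox8a, chr5:115348982-115349131 (minus) for Cox6a1, chr13:86046905-86047045 (minus) for Cox7c and chr9:50603850-50603999 (minus) for Sdhd.
Cox7a1: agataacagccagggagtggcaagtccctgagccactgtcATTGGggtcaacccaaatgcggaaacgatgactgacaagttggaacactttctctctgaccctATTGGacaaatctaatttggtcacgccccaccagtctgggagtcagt
Cox7a2: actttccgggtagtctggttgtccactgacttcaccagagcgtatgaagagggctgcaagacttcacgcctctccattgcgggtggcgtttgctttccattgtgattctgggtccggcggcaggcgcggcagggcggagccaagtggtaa
Cox8b: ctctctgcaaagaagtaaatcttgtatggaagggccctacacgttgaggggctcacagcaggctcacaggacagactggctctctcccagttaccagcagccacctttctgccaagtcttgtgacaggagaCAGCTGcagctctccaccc
Cox8a: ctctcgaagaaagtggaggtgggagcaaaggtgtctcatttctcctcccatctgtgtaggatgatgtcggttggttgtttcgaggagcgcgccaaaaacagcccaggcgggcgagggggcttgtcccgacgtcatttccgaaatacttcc
Cox6a1: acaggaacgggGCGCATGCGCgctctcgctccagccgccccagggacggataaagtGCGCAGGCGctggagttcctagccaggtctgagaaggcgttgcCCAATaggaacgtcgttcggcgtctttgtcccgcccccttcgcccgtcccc
Cox7c: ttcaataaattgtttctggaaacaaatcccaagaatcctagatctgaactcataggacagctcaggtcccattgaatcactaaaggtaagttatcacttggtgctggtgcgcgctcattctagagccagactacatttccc
Sdhd: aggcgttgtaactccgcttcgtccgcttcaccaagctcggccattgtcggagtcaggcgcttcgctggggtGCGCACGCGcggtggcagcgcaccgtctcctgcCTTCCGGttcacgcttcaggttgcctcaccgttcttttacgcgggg
Cox7a1 held the CCAAT box at -110 and at -47, Cox8b the E-box CAGCTG at -19, and Cox7a2, Cox8a and Cox7c none of the motifs in these stretches. Cox6a1 held overlapping NRF1 matches at -139 and -138, another at -94 and a CCAAT box at -51. Sdhd held NRF1 at -79 and the ETS motif at -46. The muscle isoforms Cox7a1 and Cox8b therefore shared no motif here.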

How the data were processed

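Whole skin RNA was sequenced in 20 samples. Per the labels' protocols, ribosomal RNA was removed with either of 2 kits, with no record of the kit per sample, before directional library preparation. The submitters' processing notes name HISAT2, Cufflinks and Cuffdiff and the mm10 build, with no versions. The annotation, and the way samples were pooled into groups, remain not given in the sources used here. FPKM values were deposited by the authors, 1 column per group, in 46744 rows. Read depth is unknown, so no interval or floor is given, and an exact 0 can be a failed estimate.

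Log2 ratios of (FPKM + 1) were computed from that table for genes that averaged 1 FPKM or more, and they understate the differences of low genes. The planned fallback for 1 value per group was used, without a test. Rows with several symbols counted for each symbol. Gene spans, transcript lengths and pseudogenes came from GENCODE M21, copies were found with BLAST 2.17.0, and promoters came from RefSeq. The code for the rule of a size of at least 1 was run on a simulated table with larger planted changes. The rule of 0.5 was not run in this way, and the run does not bear on the counts given here. Python 3.11.15, pandas 2.3.3, numpy 2.4.6 and matplotlib 3.10.9 were used. Genes were named by a written rule: isoform pairs, core subunits, the highest and lowest levels per complex, the 3 highest and lowest ratios per comparison, and members past a size of 1 or listed at 0. One gene that the rule names is counted in the sets but not reported here by name. Sdhc, Cox6c, Atp5g1, Atp5g2 and Atp5g3 were added after their values were seen, as were Ndufb5, Ndufb10, Ndufa10, Ndufb7, Ndufc2, Atp5j and the genes listed by a shared pattern. The genes and lists were chosen with earlier results of these data known. Alternatives were pseudocounts of 0.1 and 0.5, other filters, 2 rescalings and other ways of choosing rows; protein-coding genes alone were tried after the data were seen.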

Additional observations from a re-analysis of the deposited data

How the results depend on the processing

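No paired analysis was possible because the table holds 1 value per group; leaving out replicates was not possible for the same reason. A median or ratio was taken as moved beyond 0.1 on the log2 scale, a count beyond 1.5 times and an isoform percentage beyond 5 points. By this measure 2280 values kept their place and 171 moved, 142 of them with equal totals. Among the values checked in this way, rescaling changed the sign of 29, 20 with equal totals and 9 with a common median. All were of a size of 0.15 or less as deposited. Over all 82 genes more ratios changed sign. With equal totals 80 genes lay below 0 in control skin from 100 to 300 days, against 54 as deposited, and 60 with age, against 69. Rescaling to equal totals (TPM) moved the medians of the set to -0.090 with age, -0.55 in cKO skin at 100 days, -0.25 for control skin from 100 to 300 days and 0.31 for the difference between genotype ratios. The median of all genes moved with them, by over 0.1 and with a change of sign in the last 3 (from 0.02 to -0.10, 0.03 to -0.15 and -0.02 to 0.08), and the set minus all genes stayed at -0.45 against -0.43 in cKO skin at 100 days. With equal totals, 49 genes were lower by at least 0.5 in cKO skin at 100 days (background then 21.4%), 2 were higher by 0.5 with age, 1 was higher by 1 in cKO skin at 300 days, and 4 and 1 were lower by 0.5 and 1 in control skin from 100 to 300 days. A common median gave 2 genes higher by 0.5 with age. With a mean of at least 5 FPKM, 0 were higher by 0.5 with age, 1 was in cKO skin at 300 days and 0 were lower by 0.5 in control skin from 100 to 300 days. With a pseudocount of 0.1, 1 gene was higher by 1 with age, 2 in cKO skin at 300 days (1 with 0.5) and 2 were lower by 1 in control skin from 100 to 300 days. The cause of these shifts was not tested.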
